A study of Homo sapiens with 12 samples.

Results

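The genes described here are 10 genes of the osteoblast lineage and of the RUNX family: RUNX1, RUNX2, RUNX3, SP7, ALPL, ALPP, SPP1, IBSP, BGLAP, and SPARC. They were taken from the counts by gene symbol, and all 10 were found among 25369 listed genes. ALPP and RUNX3 were chosen because earlier results of these data showed them to change, so their values are a description and carry no test. The other 8 were chosen for their role in bone.

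RNA-seq counts were available for 12 samples of U2OS Tet-On cells, a human osteosarcoma cell line in which doxycycline switches on a construct. Stable lines carried the empty vector (pTRE), WT E2F1, the R109K derivative, or the KK derivative, with 3 biological replicates of each. R109K and KK carry lysine in place of arginines of E2F1 that are methylated, 1 arginine targeted by PRMT1 in R109K and a pair targeted by PRMT5, at residues 111 and 113, in KK. All samples, pTRE included, received 1 μg/ml doxycycline for 24 hours and were grown with G418 and hygromycin B. The lines were made from the same parental Tet-On cells by stable transfection, and the number of clones behind each line is not given in the sources used here. An effect of the induced protein and a difference between separately made lines therefore cannot be told apart. The parental E2F1 gene was present in every line.

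Osteoblasts arise from mesenchymal progenitors under the control of RUNX2 and, downstream of it, SP7. RUNX proteins bind DNA together with the partner CBFB. Maturing osteoblasts make alkaline phosphatase (ALPL) and secrete a matrix of type I collagen with SPARC, osteopontin (SPP1), bone sialoprotein (IBSP), and, late in differentiation, osteocalcin (BGLAP). ALPP encodes the placental alkaline phosphatase, a relative of ALPL that is normally made in placenta and is found in some tumors. RUNX1 and RUNX3 are best known from blood cells and from lymphoid and neuronal cells.

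The stretches upstream of RUNX2, RUNX3, ALPP, SPP1, and SPARC are shown because these are the members whose RNA was lower with induced E2F1. Each comes from the 300 bases before the start of the canonical transcript in the GRCh37 sequence, cut off where another transcript of the gene starts inside this window, and is written 5′ to 3′ on the strand of the gene. The RUNX3 stretch lies within the gene, since another transcript of RUNX3 starts upstream of it. Capitals mark a RUNX motif, TGTGGT or TGCGGT, which in these stretches was read on the opposite strand as ACCACA or ACCGCA. The exons of ALPP, SPP1, and SPARC themselves share bases with noncoding genes of the opposite strand.
RUNX2, chr6:45295767-45295893, plus strand: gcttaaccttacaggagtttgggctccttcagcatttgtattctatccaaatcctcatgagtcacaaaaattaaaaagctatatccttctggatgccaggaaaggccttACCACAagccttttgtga
RUNX3, chr1:25256768-25257067, minus strand: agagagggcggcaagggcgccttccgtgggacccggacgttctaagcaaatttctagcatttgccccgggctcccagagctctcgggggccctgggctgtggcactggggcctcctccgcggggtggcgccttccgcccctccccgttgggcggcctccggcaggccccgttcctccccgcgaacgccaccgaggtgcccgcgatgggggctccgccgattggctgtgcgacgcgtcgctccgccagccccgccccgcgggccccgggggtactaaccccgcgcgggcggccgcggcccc
ALPP, chr2:233243161-233243433, plus strand: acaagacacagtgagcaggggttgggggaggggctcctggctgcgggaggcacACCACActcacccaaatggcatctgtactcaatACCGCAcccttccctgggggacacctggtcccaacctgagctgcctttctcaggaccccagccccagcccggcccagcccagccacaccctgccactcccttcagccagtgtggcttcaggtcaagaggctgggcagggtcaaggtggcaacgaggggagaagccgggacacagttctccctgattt
SPP1, chr4:88896566-88896818, plus strand: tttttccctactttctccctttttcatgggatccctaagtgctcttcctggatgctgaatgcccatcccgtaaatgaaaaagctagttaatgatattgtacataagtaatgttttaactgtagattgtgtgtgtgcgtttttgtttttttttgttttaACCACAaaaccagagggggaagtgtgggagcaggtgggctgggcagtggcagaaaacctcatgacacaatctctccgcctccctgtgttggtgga
SPARC, chr5:151066537-151066776, minus strand: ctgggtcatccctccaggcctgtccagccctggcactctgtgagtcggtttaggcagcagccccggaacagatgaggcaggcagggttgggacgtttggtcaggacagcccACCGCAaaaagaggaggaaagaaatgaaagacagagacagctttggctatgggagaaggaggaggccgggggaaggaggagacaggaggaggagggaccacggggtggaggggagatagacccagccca

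Over the whole 300 bases, 5 of the 7 members that passed the filter on low counts held a RUNX motif. The RUNX2 and ALPP windows held 2 motifs each, and those of RUNX1, SPP1, and SPARC held 1 each. The windows of RUNX3 and ALPL held none. Among the windows of 15551 tested genes, 17.9% held a RUNX motif. The E2F motifs TTTCCCGC, TTTCGCGC, TTTGCCGC, and TTTGGCGC were searched on both strands as well. They were found in none of the 7 windows, against 4.71% of all windows. A match is a run of letters and was not tested for binding, and the absence of a match says only that these letters are not in this window. The windows differed widely in base composition, from 41% G or C in RUNX1 to 81.7% in ALPL, with a median of 64.3% over all windows.

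Between 11500537 and 31040903 reads of a sample were counted on genes. The smallest library was WT replicate 2, with 58.7% of its reads outside annotated genes against 23.6 to 29.6% elsewhere, and the values of the members in WT against pTRE are given with and without it. E2F1 itself averaged 91.2 CPM (counts scaled to library size with edgeR's TMM factors) in pTRE, against 1811, 1158, and 1316 CPM in WT, R109K, and KK, as the labels require. Of the marker lists of other cell types, the lymphocyte gene CD3E and the adipocyte gene ADIPOQ had 1 read each in all 12 samples together, whereas PPARG and LPL of the adipocyte list averaged 24.4 and 25.8 CPM in pTRE and LAPTM5, CD14, and PTPRC of the leukocyte list had 238, 183, and 113 reads in all. The epithelial genes KRT19 and EPCAM had 9 reads in all and 12.3 CPM in pTRE. The cells are labelled osteosarcoma and epithelial. The epithelial keratins KRT8 and KRT18 averaged 503 and 288 CPM in pTRE, and the mesenchymal marker VIM averaged 1554.

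A gene was said to rise or fall where edgeR's quasi-likelihood test across all 16625 tested genes gave a Benjamini-Hochberg adjusted p-value under 0.01. The 3 comparisons with pTRE share the same pTRE samples. Of the 10 members, 7 passed the filter on low counts. RUNX1, RUNX2, RUNX3, SPP1, and SPARC exceeded its limit of 0.369 CPM, about 10 reads, in all 12 libraries, and ALPL in 11. ALPP did so in 10 libraries, with all 3 replicates above it in 2 lines, pTRE and R109K. SP7, IBSP, and BGLAP were below it and were not tested.

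The RNA of SPARC and SPP1, genes of secreted matrix proteins, fell in every E2F1 line. RUNX2 fell in the KK and R109K lines, and RUNX1 and ALPL did not pass the test in any line. Of the 5 tested members other than ALPP and RUNX3, 2 fell in WT against pTRE, where 26.2% of all tested genes passed the test, 14.8% as higher and 11.4% as lower. In KK, 3 of 5 fell, where 24.4% of all tested genes passed, 13.8% as higher and 10.7% as lower. In R109K, 3 of 5 fell, where 17.3% passed, 10% as higher and 7.23% as lower. None of the 5 rose by edgeR, by DESeq2, or at an unadjusted p-value under 0.05. Of all 16625 tested genes, 8153 in WT, 7585 in KK, and 6422 in R109K were under that unadjusted cutoff in either direction. The 5 had a median log2 fold change of −0.60 in WT, −0.67 in KK, and −0.90 for R109K, against 0.00215, −0.00911, and −0.000736 over all tested genes.

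**Figure D1:**
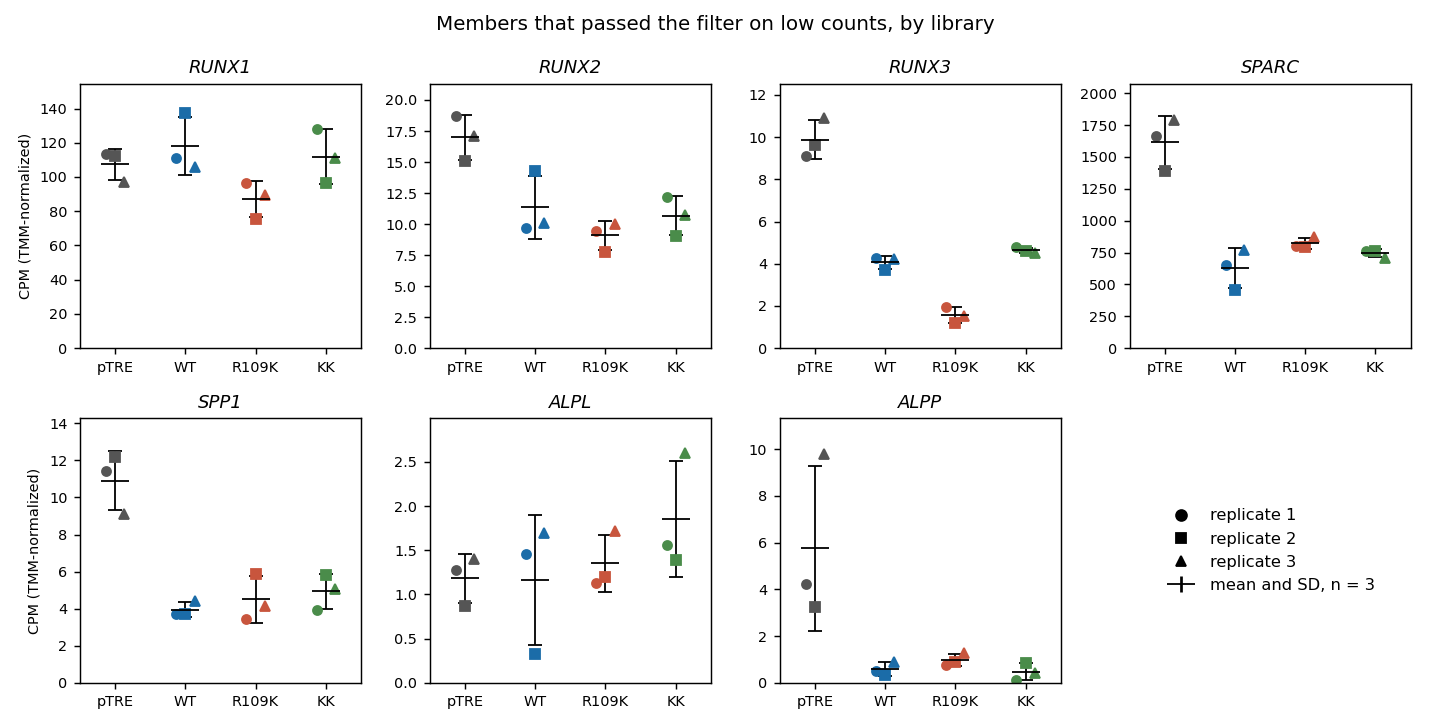
TMM-scaled CPM (linear axes from 0) of the 7 members that passed the filter, in pTRE, WT, R109K, and KK. Each symbol is 1 library, with the replicate given by its shape, and bars are the mean and SD of 3 libraries. Every SPARC, SPP1, and RUNX3 library of an E2F1 line sits below every pTRE library, and the pTRE libraries of ALPP spread from 3.27 to 9.81 CPM.

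SPARC, also called osteonectin, binds collagen and calcium in bone matrix. Its gene lies on the minus strand of chromosome 5, from 151040657 to 151066536. SPARC stood at 1664, 1387, and 1787 CPM in pTRE (1613 ± 205, SD, n = 3). It stood at 651, 457, and 770 CPM in WT, at 800, 795, and 872 CPM in R109K, and at 764, 760, and 707 CPM in KK. The pTRE libraries lay above all 9 others, and the lowest library was WT replicate 2. Of all tested genes, 26.3% had all 3 WT libraries below the 3 pTRE libraries, 24.5% all KK libraries, and 22.9% all R109K libraries. SPARC fell 2.58-fold in WT (log2 fold change −1.37, SE 0.16, adjusted p = 1.15e-05 by edgeR), and by −1.19 on the log2 scale when WT replicate 2 was left out. It fell 2.17-fold in KK (−1.12, SE 0.16, adjusted p = 7.49e-05) and 1.96-fold in R109K (−0.97, SE 0.16, adjusted p = 0.000374). All 3 R109K libraries lay above all 3 WT libraries, as in 13.1% of all tested genes, and above all 3 KK libraries, as in 9.56%, yet the R109K and WT lines did not pass the test against each other (log2 difference 0.39, 95% interval 0.05 to 0.74, adjusted p = 0.174 by edgeR), a difference of 0.21 without WT replicate 2.

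SPP1 encodes osteopontin, an acidic phosphoprotein of bone that binds mineral and integrins. The gene lies on the plus strand of chromosome 4, from 88896819 to 88904684. SPP1 stood at 11.4, 12.2, and 9.11 CPM in pTRE (10.9 ± 1.60, SD, n = 3). It stood at 3.70, 3.69, and 4.41 CPM in WT, at 3.47, 5.89, and 4.14 CPM in R109K, and at 3.94, 5.81, and 5.05 CPM in KK. No E2F1 library reached the lowest pTRE library, as in 26.3% of all tested genes for WT, 24.5% for KK, and 22.9% for R109K. The 3 E2F1 lines overlapped one another. SPP1 fell 2.75-fold in WT (log2 fold change −1.46, SE 0.21, adjusted p = 7.37e-05; −1.43 without WT replicate 2), 2.22-fold in KK (−1.15, SE 0.21, adjusted p = 0.000489), and 2.42-fold in R109K (−1.28, SE 0.21, adjusted p = 0.000302), all by edgeR. Differences among the E2F1 lines ran from −0.13 (R109K against KK, adjusted p = 0.902) to 0.31 (KK against WT, 95% interval −0.15 to 0.78, adjusted p = 0.619).

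RUNX2 is the transcription factor that commits progenitors to the osteoblast fate. The gene lies on the plus strand of chromosome 6, from 45295894 to 45632086. RUNX2 stood at 18.8, 15.1, and 17.1 CPM in pTRE (17.0 ± 1.84, SD, n = 3). It stood at 9.65, 14.3, and 10.1 CPM in WT, at 9.43, 7.78, and 10.0 CPM in R109K, and at 12.2, 9.08, and 10.7 CPM in KK. Every E2F1 library lay below the lowest pTRE library, with WT replicate 2 the closest to it. Of all tested genes, 26.3% lay below pTRE in this way in WT, 24.5% in KK, and 22.9% in R109K. RUNX2 fell 1.87-fold in R109K (log2 fold change −0.90, SE 0.17, adjusted p = 0.00101 by edgeR) and 1.59-fold in KK (−0.67, SE 0.17, adjusted p = 0.00626). The WT line, at a log2 difference of −0.60 (SE 0.17), had an adjusted p of 0.0118, and without WT replicate 2 the difference was −0.78 with an adjusted p of 0.00126. The KK call was lost without pTRE replicate 1 (−0.59, adjusted p = 0.0304), pTRE replicate 3 (−0.66, adjusted p = 0.0198), KK replicate 2 (−0.57, adjusted p = 0.0259), or KK replicate 3 (−0.67, adjusted p = 0.0193). RUNX2 did not pass the test between any 2 E2F1 lines, and the log2 difference of R109K from WT was −0.30 (95% interval −0.68 to 0.07, adjusted p = 0.304).

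RUNX1, the family member that drives the onset of blood stem cells, was the most abundant of the 3 RUNX genes. It lies on the minus strand of chromosome 21, from 36160098 to 37376965. RUNX1 stood at 113, 112, and 96.9 CPM in pTRE (107 ± 9.16, SD, n = 3), at 111, 137, and 106 CPM in WT, at 96.5, 75.7, and 89.2 CPM in R109K, and at 128, 96.4, and 111 CPM in KK. The 3 R109K libraries lay below all pTRE libraries (22.9% of all tested genes) and all WT libraries (14%), and overlapped KK. RUNX1 did not pass the test in R109K against pTRE (log2 difference −0.30, 95% interval −0.60 to −0.004, adjusted p = 0.125) or in R109K against WT (−0.44, 95% interval −0.74 to −0.14, adjusted p = 0.0953, and −0.32 without WT replicate 2), both by edgeR. Against pTRE the difference was 0.14 in WT (adjusted p = 0.46) and 0.06 in KK (adjusted p = 0.776). The highest library was WT replicate 2, without which the WT difference was 0.01.

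RUNX3, a RUNX gene that acts in T cells and in sensory neurons, was chosen for its changes. It lies on the minus strand of chromosome 1, from 25226002 to 25291612. RUNX3 stood at 9.13, 9.61, and 10.9 CPM in pTRE (9.88 ± 0.921, SD, n = 3), from 221 to 297 reads. It stood at 4.27, 3.69, and 4.23 CPM in WT and at 4.77, 4.61, and 4.50 CPM in KK. In R109K it stood at 1.95, 1.20, and 1.52 CPM, from 33 to 60 reads. The order was therefore pTRE, KK, WT, and R109K, with no overlap of libraries between neighbours in that order. The KK and WT levels differed by 0.18 on the log2 scale with an SE of 0.18, so these neighbours were within the error of the model. Against pTRE the log2 difference was −1.27 (SE 0.18) in WT (−1.22 without WT replicate 2), −1.09 (SE 0.17) in KK, and −2.66 (SE 0.19) in R109K, and R109K lay 2.96-fold below KK (−1.57, SE 0.19) and 2.62-fold below WT (−1.39, SE 0.19). The 3 replicates of R109K were lower without overlap in 14% of all tested genes against WT and in 11.4% against KK. Those of KK were higher than WT in 4.81% and lower than pTRE in 24.5%.

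To set the RUNX genes side by side, levels were divided by the length of the canonical transcript. On this scale RUNX1 stood at 18.0 CPM per kb in pTRE, RUNX2 at 3.07, and RUNX3 at 2.32. RUNX2 made up 13.1% ± 1.45 (SD, n = 3) of the summed RUNX level in pTRE, 8.92% ± 0.791 in WT, 9.89% ± 0.652 in R109K, and 8.85% ± 0.150 in KK. RUNX3 made up 9.97% ± 1.54 in pTRE, 4.26% ± 0.859 in WT, 2.17% ± 0.279 in R109K, and 5.04% ± 0.622 in KK. RUNX1 accounted for the rest, 76.9% in pTRE and between 86.1 and 87.9% in the E2F1 lines. The shares are a description, as they include RUNX3.

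**Figure D2:**
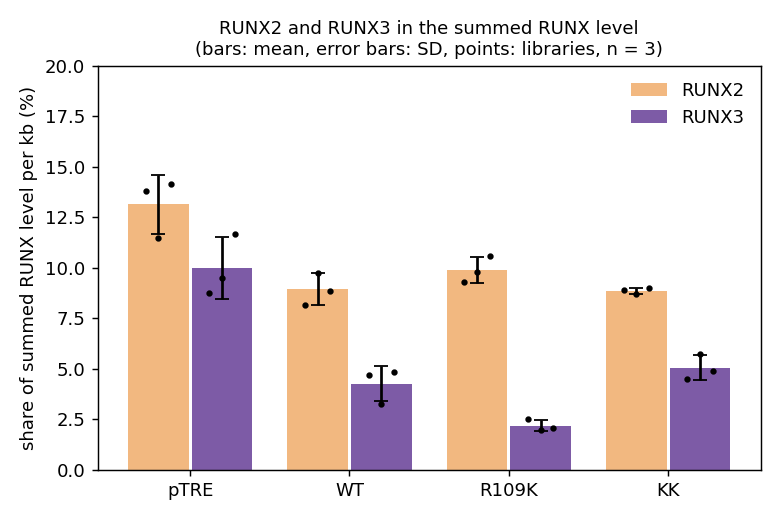
Share of RUNX2 and RUNX3 in the summed level of the 3 RUNX genes, in percent of CPM per kb of canonical transcript (axis from 0), for pTRE, WT, R109K, and KK. Bars are means, error bars are SDs, and points are the 3 libraries. The RUNX3 share is 9.97% in pTRE and 2.17% in R109K.

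ALPL, the tissue-nonspecific enzyme that releases phosphate for mineralization, was close to the detection limit. It lies on the plus strand of chromosome 1, from 21835890 to 21904903. ALPL stood at 1.28, 0.874, and 1.40 CPM in pTRE (1.18 ± 0.274, SD, n = 3), at 1.46, 0.321, and 1.70 CPM in WT, at 1.13, 1.20, and 1.72 CPM in R109K, and at 1.56, 1.39, and 2.61 CPM in KK. The lines overlapped, and the lowest value, in WT replicate 2, rests on 4 reads. The log2 difference from pTRE was 0.06 in WT (95% interval −0.85 to 0.97, adjusted p = 0.918, and 0.41 without WT replicate 2), 0.18 in R109K (−0.72 to 1.08, adjusted p = 0.798), and 0.65 in KK (−0.24 to 1.54, adjusted p = 0.249), all by edgeR. Differences inside these intervals were not detectable at this depth.

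ALPP was chosen for its changes as well. It lies on the plus strand of chromosome 2, from 233243434 to 233247599. ALPP had 102, 86, and 267 reads in pTRE, 14, 4, and 25 in WT, 24, 24, and 31 in R109K, and 4, 18, and 11 in KK. In CPM it stood at 4.21, 3.27, and 9.81 in pTRE (5.76 ± 3.54, SD, n = 3), at 0.499, 0.321, and 0.903 in WT, at 0.778, 0.872, and 1.27 in R109K, and at 0.138, 0.864, and 0.434 in KK. Every E2F1 library lay below every pTRE library, and pTRE replicate 3 was more than 2-fold above the other pTRE libraries. The log2 difference from pTRE was −3.23 (SE 0.52) in WT, −3.65 (SE 0.54) in KK, and −2.57 (SE 0.49) in R109K, and it was −3.04 in WT without WT replicate 2. Without pTRE replicate 3 the difference was −2.62 in WT, −1.95 in R109K, and −3.01 in KK, and without KK replicate 2 that in KK was −4.34. All 3 replicates were lower than pTRE without overlap in 26.3% of tested genes for WT, 24.5% for KK, and 22.9% for R109K. The E2F1 lines overlapped one another, with R109K the highest on average, at a log2 difference of 1.07 from KK (SE 0.57), or 1.77 without KK replicate 2.

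ALPP has close relatives, so its reads were set beside theirs. The germ cell phosphatase ALPPL2 had 5 reads in all 12 samples together, and the intestinal phosphatase ALPI had 0. In the annotated transcripts, 26.5% of the 50-base windows and 18.6% of the 75-base windows of ALPP recur in ALPPL2. Reads in such windows cannot be assigned to 1 gene, and 8.6 to 9.6% of the reads of each library were set aside as not unique. Of the exon bases of ALPP, 22.0% overlap a noncoding gene of the opposite strand, as do 4.12% of those of SPARC and 2.70% of those of SPP1. The libraries were made with a kit that keeps strand, but the strand setting of the counting is not given in the sources used here.

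SP7, IBSP, and BGLAP were scarcely detected. SP7 (minus strand of chromosome 12, 53720359 to 53739099) had 5 reads in all, 3 of them in WT replicate 2, 1 in WT replicate 3, and 1 in KK replicate 3. It had 0 reads in pTRE and in R109K, which allows up to 3 reads, or 0.0386 CPM over the pTRE libraries and 0.0362 CPM over the R109K libraries, by counting error only. IBSP (plus strand of chromosome 4, 88720706 to 88733587) had 4 reads, 3 in pTRE replicate 2 and 1 in KK replicate 3. BGLAP (plus strand of chromosome 1, 156211975 to 156213108) had between 0 and 6 reads per library and 42 in all. Its exons share 394 bases with the readthrough gene PMF1-BGLAP, to which 0 reads were assigned. No difference between lines was detectable for these 3 genes at this depth.

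**Figure D3:**
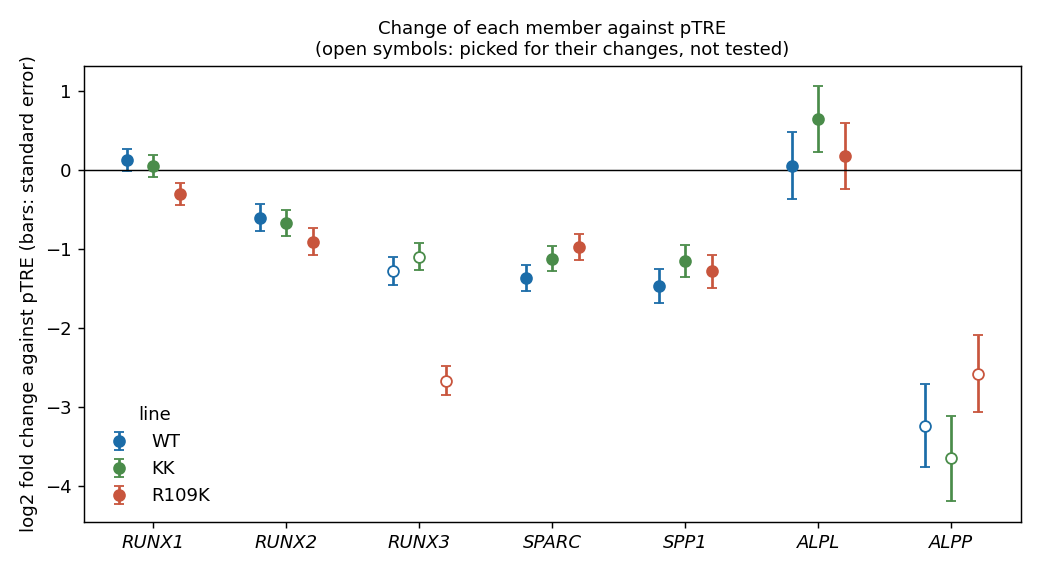
Log2 fold change against pTRE of the 7 members that passed the filter, from the edgeR model of all 12 samples, with bars for 1 standard error. Filled symbols are tested members and open symbols are RUNX3 and ALPP, which were picked for their changes. SPARC, SPP1, and RUNX2 lie below 0 in each E2F1 line, from −1.46 to −0.60, and RUNX1 and ALPL lie between −0.30 and 0.65.

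Among the E2F1 lines themselves, none of the 5 tested members passed the test. Only 0.71% of all tested genes did so in R109K against WT, 0.012% in KK against WT, and 0.132% in R109K against KK. At an unadjusted p-value under 0.05 there were 2 of 5 in R109K against WT (RUNX1 lower and SPARC higher), 0 in KK against WT, and 1 in R109K against KK (RUNX1 lower), and DESeq2 called 0 in each. In KK against WT the log2 differences were −0.08 for RUNX1 (95% interval −0.38 to 0.22), −0.07 for RUNX2 (−0.44 to 0.30), and 0.25 for SPARC (−0.09 to 0.59). Differences inside these intervals were not detectable.

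Per kb of transcript, SPARC was the most abundant member, at 467 CPM per kb in pTRE, beside 602 for COL1A1. SPP1 stood at 6.99, RUNX2 at 3.07, ALPP at 2.09, ALPL at 0.467, and BGLAP at 0.259 CPM per kb in pTRE. RNA was taken from whole cultures, so fewer cells with a transcript and less of it per cell cannot be told apart.

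The genes with the most similar course over the 12 samples were found by the smallest root mean square difference of log2 CPM, each gene centred on its own mean, among 13305 genes. These values are a description, since all points share the same libraries and depths. For SPARC, whose own root mean square deviation was 0.553, they were DDAH2 (0.0608), MAGED2 (0.103), and PDIA4 (0.108). For SPP1 (0.610) they were LINC01234 (0.204), NUB1 (0.208), and LACTB (0.225). For RUNX3 (0.948) they were OR51B5 (0.336), BMP3 (0.336), and GLUL (0.411). BMP3 stood at 13.7 CPM in pTRE, 7.68 in WT, 3.24 in R109K, and 6.93 in KK. For ALPP (1.49) they were BST2 (0.431), TNNC1 (0.519), and EDN2 (0.572). BST2 stood at 23.1 CPM in pTRE, 3.67 in WT, 4.63 in R109K, and 1.67 in KK.

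Around these members, 85 other genes of bone formation were listed by role, of which 64 were tested. In WT 12 rose and 8 fell (31.2% of the 64, against 26.2% of all tested genes), in KK 14 rose and 12 fell (40.6% against 24.4%), and in R109K 11 rose and 8 fell (29.7% against 17.3%). Their median log2 fold change was −0.02 in WT, −0.009 in KK, and 0.03 in R109K. The genes that rose include ZBTB16 in each line and DKK1 in KK, which passed the filter on low counts through the lines where they were high. Without WT replicate 2, 17 of the 64 passed in WT instead of 20, and 4066 of all genes passed instead of 4362. COL1A1 then stood at −2.63 and CBFB at 1.34 on the log2 scale. No gene of these lists passed edgeR's test between 2 E2F1 lines. At an unadjusted p-value under 0.05 there were 17 of the 64 in R109K against WT, 4 in KK against WT, and 17 in R109K against KK. Over all 16625 tested genes there were 3714, 1415, and 2062. DESeq2 called 7, 0, and 2 of the lists, against 546, 11, and 256 over all genes.

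Of 8 tested partners and co-regulators of RUNX proteins, 3 rose in WT and in KK and 2 in R109K, which is 37.5, 37.5, and 25% of them against 26.2, 24.4, and 17.3% of all tested genes. Their median log2 fold changes were 0.15, 0.04, and 0.005, and 0 fell by edgeR, by DESeq2, or at an unadjusted p-value under 0.05. CBFB, the partner with which RUNX proteins bind DNA, stood at 67.6, 62.7, and 59.2 CPM in pTRE and at 183, 155, and 137 CPM in WT. In KK it stood at 155, 130, and 134 CPM, and in R109K at 119, 124, and 102 CPM. CBFB rose 2.51-fold in WT (adjusted p = 2.04e-06 by edgeR), 2.21-fold in KK (adjusted p = 8.08e-06), and 1.82-fold in R109K (adjusted p = 0.000168). TLE2 and TLE3, co-repressors of the Groucho family, rose in WT by 1.18 and 0.97 on the log2 scale and in KK by 1.15 and 0.94. In R109K TLE2 rose by 0.69, and TLE3 stood 0.46 above pTRE with an adjusted p of 0.0111 (0.0014 by DESeq2).

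Of 8 tested osteoblast transcription factors, 2 rose in WT, 3 in KK, and 2 in R109K. These are 25, 37.5, and 25% of them, against 26.2, 24.4, and 17.3% of all tested genes. The shares count ZBTB16 in each line. It exceeded the filter limit of 0.369 CPM only in the E2F1 lines, where it was high, so its calls are no support for a rise. Their median log2 fold changes were 0.52, 0.64, and 0.57. None of the 8 fell by edgeR. At an unadjusted p-value under 0.05, 0 were lower in WT, 1 in KK, and 1 in R109K, and DESeq2 called 0, 0, and 1 lower. MSX2, a homeobox factor of skull and tooth development, rose from 4.51 CPM in pTRE to 10.2 in WT, 11.1 in KK, and 8.41 in R109K (adjusted p = 6.59e-05, 3.11e-05, and 0.00105 by edgeR). ZBTB16, a zinc finger factor linked to osteoblast differentiation, had 1 read in the pTRE libraries together against 125 in WT, 125 in KK, and 54 in R109K. The ratio was 142 in WT, with a 95% counting interval from 25.1 to 5670. It was 129 in KK (22.8 to 5150) and 50.7 in R109K (8.72 to 2040). MSX1 rose in KK (log2 fold change 0.97, adjusted p = 0.00145), a call lost without pTRE replicate 1 (0.80, adjusted p = 0.0108), and missed the test in WT (0.56) and R109K (0.61).

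Of the BMP ligands, which start osteoblast differentiation through SMAD proteins, BMP2 and BMP6 rose and BMP4 fell. BMP2 stood at 10.9, 8.89, and 10.6 CPM in pTRE and at 39.7, 26.3, and 28.4 CPM in WT, a 3.11-fold rise (adjusted p = 2.17e-06 by edgeR). It rose 2.57-fold in KK and 1.74-fold in R109K, where the call was lost without pTRE replicate 2 (log2 fold change 0.71, adjusted p = 0.0141) or R109K replicate 1 (0.74, adjusted p = 0.0114). BMP6 rose 3.27-fold in WT, 3.13-fold in KK, and 2.54-fold in R109K. BMP4 stood at 92.9, 84.9, and 127 CPM in pTRE and at 39.8, 31.2, and 54.7 CPM in WT, and fell 2.42-fold in WT (adjusted p = 8.11e-05) and 2.45-fold in KK (adjusted p = 7.27e-05). In R109K BMP4 was 0.59 lower on the log2 scale with an adjusted p of 0.0251. ID4, of the ID family of helix-loop-helix inhibitors, rose 2.83-fold in WT, 2.79-fold in KK, and 2.44-fold in R109K, and the R109K call was lost without pTRE replicate 1 or 3 or R109K replicate 1 or 2 (adjusted p up to 0.0176). SMAD7, an inhibitor of the pathway, fell by 0.68 to 0.72 on the log2 scale in the 3 lines. Of the 21 tested genes of this list, 3 rose in each line, and 3 fell in WT, 4 in KK, and 2 in R109K (28.6, 33.3, and 23.8% in all, with medians of −0.15, −0.16, and −0.02).

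Of 7 tested genes of hormone, Wnt, and osteoclast-regulating signals, 1 fell in WT, 2 fell and 1 rose in KK, and 2 fell in R109K. These are 14.3, 42.9, and 28.6% of the 7, against 26.2, 24.4, and 17.3% of all tested genes. The medians of the 7 were −0.03, 0.01, and −0.20. LRP5, a Wnt co-receptor that sets bone mass, fell 2.16-fold in R109K (adjusted p = 0.000291 by edgeR), 1.78-fold in WT (adjusted p = 0.00192), and 1.68-fold in KK (adjusted p = 0.00378). The WT call on LRP5 was lost without pTRE replicate 3 or WT replicate 1 (adjusted p up to 0.0139), and the KK call without any 1 of 5 libraries, all but pTRE replicate 1 (up to 0.0272). VDR, the vitamin D receptor, was 0.37 to 0.43 lower on the log2 scale in the 3 lines and passed in KK and R109K, calls lost without any library but pTRE replicate 1 in KK and without any library in R109K (adjusted p up to 0.0267). DKK1, a Wnt antagonist, had 3 reads in pTRE against 23 in WT, 42 in KK, and 13 in R109K. Its ratio to pTRE was 14.5 in KK, with a counting interval from 4.63 to 73.1, and the KK call was lost without pTRE replicate 2 or 3 (adjusted p up to 0.0142). All 3 replicates of DKK1 exceeded the filter limit of 0.369 CPM only in KK, where it was highest. Its call is therefore no support for a rise, and DKK1 is the 1 gene counted above as risen in KK.

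Of the tested matrix genes, COL1A1 changed most in each line. COL1A1, the main chain of type I collagen, stood at 3312, 3280, and 4079 CPM in pTRE. It stood at 541, 550, and 611 CPM in WT, at 931, 786, and 810 CPM in R109K, and at 724, 721, and 543 CPM in KK. COL1A1 fell 6.27-fold in WT (adjusted p = 8.57e-09 by edgeR), 5.37-fold in KK (adjusted p = 1.84e-08), and 4.22-fold in R109K (adjusted p = 1.53e-07). COL1A2, the second chain of that collagen, had 50 reads in all 12 samples and was not tested. SERPINH1, the collagen chaperone of the endoplasmic reticulum, fell 2.58-fold in WT, 2.13-fold in KK, and 1.68-fold in R109K, where the call was lost without pTRE replicate 3 or R109K replicate 1 (adjusted p up to 0.0225).

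The transporters ANKH and SLC20A1 rose in each E2F1 line. ANKH, which moves pyrophosphate out of cells, rose from 52.7 CPM in pTRE to 163 in WT, 158 in KK, and 122 in R109K (adjusted p = 7.3e-08, 9.03e-08, and 2.2e-06 by edgeR). SLC20A1, a phosphate importer, rose 1.68-fold, 1.62-fold, and 1.52-fold in the same order. The second phosphate importer, SLC20A2, fell by 0.47 on the log2 scale in KK (adjusted p = 0.00743 by edgeR) and was 0.38 lower in WT (0.0244) and 0.22 lower in R109K (0.201). It was named after its values were seen, as the only other phosphate importer of the list. PDPN, a marker of early osteocytes, rose 1.42-fold in WT, 1.64-fold in KK, and 1.59-fold in R109K. The WT call on PDPN was lost without any library but WT replicate 2 (adjusted p up to 0.0384), and the R109K call without pTRE replicate 2 (0.0104). FN1, fibronectin, fell by 0.65 in KK and 0.68 in R109K on the log2 scale, calls lost without any library but KK replicate 1 in KK and without any library in R109K (adjusted p up to 0.0498), and was 0.34 lower in WT with an adjusted p of 0.137. Of 14 tested matrix genes, 3 rose in each line, and 3 fell in WT, 5 in KK, and 3 in R109K (42.9, 57.1, and 42.9% in all, with medians of −0.03, −0.28, and −0.02).

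Among the relatives of SPARC, SMOC1 rose 2.82-fold in WT, 4.05-fold in KK, and 2.73-fold in R109K (adjusted p = 1.12e-05, 5.82e-07, and 2.55e-05 by edgeR). SPOCK1 was 0.56 to 0.65 lower on the log2 scale and passed in each line. Its calls were lost without any library in WT, without any library but KK replicate 1 in KK, and without 4 of 6 in R109K, pTRE replicates 1 and 3 and R109K replicates 2 and 3 (adjusted p up to 0.036). The other 4 genes of this family did not pass. In each line 33.3% of the 6 passed, against 26.2, 24.4, and 17.3% of all tested genes in WT, KK, and R109K. The medians of the 6 were −0.05, −0.31, and 0.13 in the same order.

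**Figure D4:**
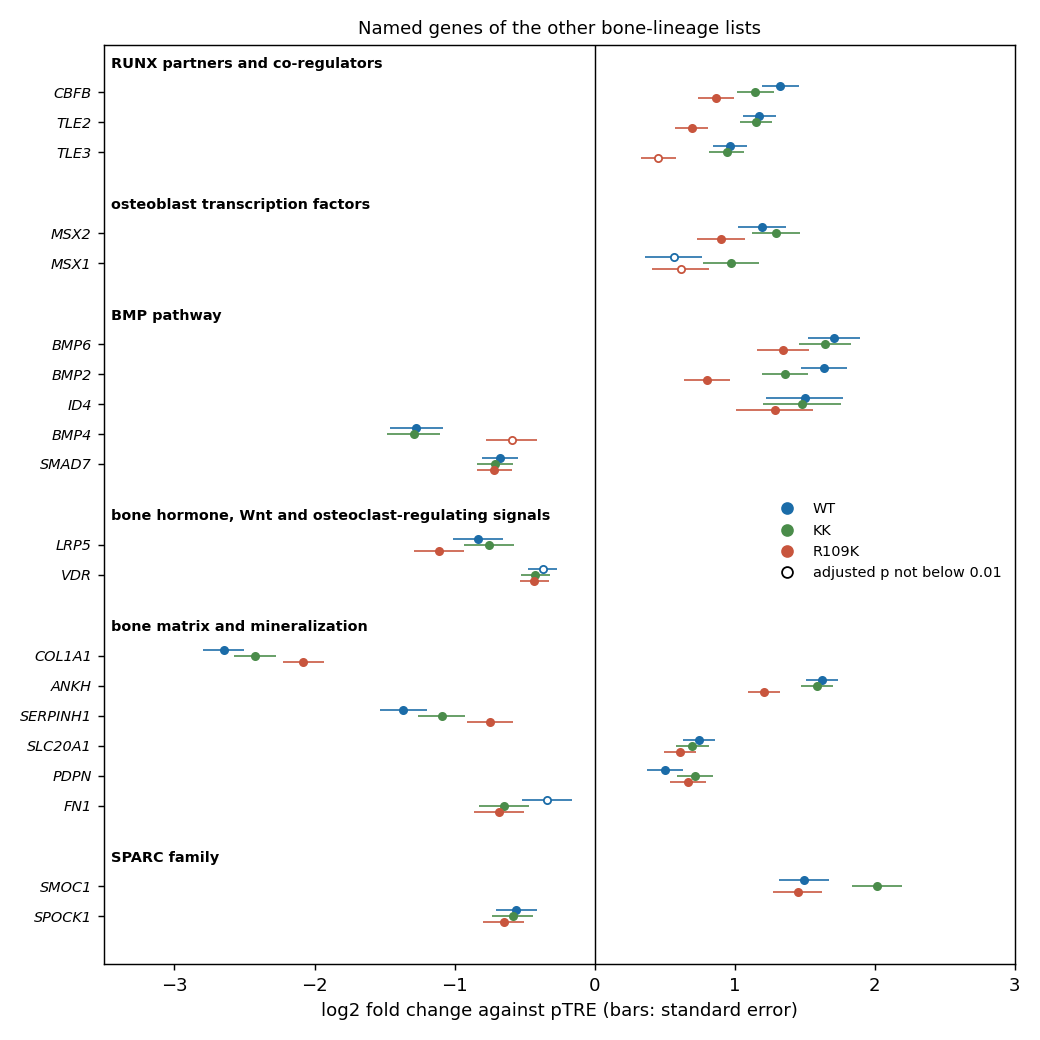
Log2 fold change against pTRE, with bars for 1 standard error, of the named genes of the other bone-lineage lists in WT, KK, and R109K, grouped by list. Filled symbols passed edgeR's test at an adjusted p under 0.01 and open symbols did not. COL1A1 lies farthest below 0, at −2.65 in WT, and SMOC1 farthest above, at 2.02 in KK. ZBTB16 and DKK1 are left out because pTRE had 1 and 3 reads.

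Markers of other cell types moved in some of the same comparisons. Of all tested genes, 26.2% passed in WT, 24.4% in KK, and 17.3% in R109K. Of the tested markers, 75% of the mesenchymal and 25% of the epithelial list passed in each line. In WT, KK, and R109K the shares were 25, 25, and 50% for cartilage and 40, 20, and 40% for osteoclast markers. For adipocyte markers they were 25, 25, and 0%, and for leukocyte markers 33.3, 0, and 0%. Of 4 mesenchymal markers, CDH2, THY1, and PDGFRB fell in each E2F1 line, PDGFRB from 48.4 CPM in pTRE to 13.2 in WT, 12.9 in R109K, and 10.0 in KK. The summed level of the 4 ranged from 1912 to 2151 CPM in pTRE, from 1341 to 1645 CPM in WT, from 1844 to 2073 CPM in R109K, and from 1606 to 2003 CPM in KK. Of 4 tested epithelial markers, KRT8 fell in each line, and the summed level ranged from 744 to 919 CPM in pTRE, from 365 to 585 CPM in WT, from 521 to 610 CPM in R109K, and from 468 to 659 CPM in KK. Of 4 tested cartilage markers, ACAN rose in each line (20.1 CPM in pTRE, 72.7 in WT, 65.3 in R109K, and 65.7 in KK). COL2A1 was lower in R109K, on 13 reads against 60 in pTRE. All 3 of its replicates exceeded the filter limit of 0.369 CPM only in pTRE, where it was highest. Its call is therefore no support for a fall, and the 50% for cartilage in R109K includes it. The cartilage sums ran from 108 to 126 CPM in pTRE and from 130 to 177 in the E2F1 lines. Of 5 tested osteoclast markers, MMP9 fell in each line, ITGB3 fell in R109K, and CTSK rose in WT, with sums between 32.5 and 46.2 CPM in all libraries. CTSK stood at 6.09, 9.96, and 5.17 CPM in WT, highest in WT replicate 2, against a mean of 3.37 CPM in pTRE. Of 4 tested adipocyte markers CEBPA rose in WT and KK, with summed levels of 47.7 to 61 CPM. Of 3 tested leukocyte markers CD14 rose in WT, on 61 reads against 24 in pTRE. The part of these markers in the results above was not tested.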

How the data were processed

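The authors deposited 1 set of whole-number read counts per gene for each of 12 samples, not normalized. According to the methods and the submitters' processing notes, reads were trimmed with Trim Galore 0.4.3, aligned to hg19 with STAR 2.5.1, and counted by the aligner. The gene annotation, the strand setting, and the counter's options are not given in the sources used here. Lines of reads not assigned to genes were left out of library sizes and tests, and held 34.3 to 68.8% of the reads of a library. The samples were grouped by the line in their titles, 3 per line, and no 2 libraries of a line agreed within sampling noise.

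Genes were filtered with filterByExpr (minimum count 10, the 4 lines as groups), scaled by TMM, and tested with edgeR 4.0.16 (R 4.3.3) in 1 quasi-likelihood model with a mean per line. SEs are from this model. The adjusted p-value threshold of 0.01 follows the study's methods, and the study's further requirement of more than 2-fold was not applied to calls here. Replicate numbers of R109K and KK appeared paired, since the correlation of their deviations was 0.411, 0.47, and 0.294 in the 3 pairs, and no other 2 lines met this bar. The model held no replicate term, so the results of R109K against KK given above ignore this pairing. With a replicate block, run as an alternative, 25 genes passed in R109K against KK, against 22 in the main model. Log2 values of samples used a prior count of 2. The script was tested on simulated data. Positions, transcript lengths, and promoters came from GENCODE v44 on GRCh37, which matched 22723 of 25369 symbols, with Python 3.11.15, pandas 2.3.3, and numpy 2.4.6. Ratios with 3 or fewer reads have exact conditional intervals, which cover counting error only.

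The members and lists were chosen with earlier results of these data known. Named genes are the members, E2F1, up to 4 genes of each list with the largest change past the test in each E2F1 line against pTRE, and the 3 genes of most similar course with a mean count of at least 50. DESeq2 1.42.0, RLE scaling, no filter, only 6 samples, a replicate block, and leaving out each library were the alternatives.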

Additional observations from a re-analysis of the deposited data

How the results depend on the processing

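The numbers of members and of other bone genes that passed the test against pTRE kept within 1.5 times the reported number under every alternative. With a library left out, they ranged from 2 to 3 members in WT and KK and stayed at 3 in R109K, and from 15 to 18, 18 to 24, and 13 to 16 other bone genes in WT, KK, and R109K. Over all genes, the number passing then ranged from 3204 to 4282 in WT, from 3040 to 3717 in KK, and from 1827 to 2160 in R109K. SPARC and SPP1 passed in each line under every alternative. RUNX2 in WT passed with DESeq2 (log2 fold change −0.60, adjusted p = 0.0042) and with no filter (−0.62, adjusted p = 0.00624). Over the 18 pairs that share a number, the correlation of deviations ranged from −0.295 to 0.47. It was over 0.1 in 5, the 3 of R109K with KK and 2 of pTRE with WT. R109K and KK therefore appeared paired, and the other lines share only a number. The main model did not use this pairing. With the replicate number as a block, no call on the 5 tested members changed in R109K against KK (0 passed), RUNX2 in KK against pTRE was −0.67 (adjusted p = 0.0115), and ALPL in WT turned to −0.03.

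Directions that turned when 1 library was left out belonged to members that had not passed the test or were not tested. Against pTRE, ALPL ranged from −0.27 to 0.41 in WT and −0.021 to 0.32 in R109K, and RUNX1 from −0.05 to 0.16 in KK. In R109K against WT, ALPL ranged from −0.24 to 0.45 and SPP1 from −0.057 to 0.35. In KK against WT, RUNX1 ranged from −0.18 to 0.044, RUNX2 from −0.17 to 0.12, and ALPP from −1.11 to 0.078, and in R109K against KK SPP1 ranged from −0.37 to 0.029. The cause was not tested. Depth limits ALPL, ALPP, SP7, IBSP, BGLAP, and DKK1, which have few reads, and 3 samples per line limit all tests.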
